A study of Mus musculus with 6 samples.

Results

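The transcripts of 10 circadian clock genes were followed in neutrophils isolated from mouse bone marrow: Clock, Per1, Per2, Per3, Cry1, Cry2, Nr1d1, Nr1d2, Dbp and Nfil3. They were chosen by name, with earlier results of these data known, from the genes of the transcriptional feedback loops of the clock. All 10 were found among the 47561 rows of the gene tables, each on 1 row. There were 3 CUMS libraries, from mice taken through chronic unpredictable mild stress (a changing series of mild stressors over 4 weeks), and 3 Control libraries. All 6 came from male WT mice, and the cells were sorted by flow cytometry. The sources used here do not give strain, age, sorting markers, the hour at which marrow was taken, or whether the libraries of a group are separate animals. The p-values measure only the spread between these samples, which may be technical.

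The mammalian clock is a loop of transcription and repression. The proteins CLOCK and BMAL1 bind E-box sequences and switch on the Per and Cry genes, whose products return to the nucleus and block CLOCK and BMAL1. The same E-boxes drive Nr1d1 and Nr1d2, which encode the repressors REV-ERB alpha and beta, and Dbp, which encodes an activator that binds D-box sequences. REV-ERB proteins compete with ROR activators at ROR elements and so set the rhythm of Clock, Cry1 and Nfil3, the last encoding the D-box repressor that opposes DBP. In mouse tissues such as liver, genes of the E-box arm and genes of the ROR element arm peak at different times of the day. Mouse neutrophils carry this clock, and it is known for its part in the daily ageing and release of these cells.

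Per1 and Nfil3 were lower in CUMS neutrophils by about the same amount, and none of the other 8 clock genes passed the test. Per1 fell by 20.6% and Nfil3 fell by 21.9%, and in each gene all 3 CUMS libraries lay below all 3 Control libraries. Groups apart in this way were found in 11.5% of all genes tested on the lower side and 11.5% on the higher side. Per1 and Nfil3 are the 2 clock genes with the highest level per length in these cells. Clock was higher in all 3 CUMS libraries than in any Control library but stayed short of the threshold. It was the only other clock gene with an unadjusted p under 0.05, which 16.9% of all genes tested had. DESeq2 (9.81% of genes called) and limma-voom (6.05%) called the same 2 clock genes. The 2 calls among 10 genes stand against a background of 4.5% of the 15778 genes tested (2.14% lower and 2.36% higher in CUMS), with edgeR's quasi-likelihood test and a Benjamini-Hochberg adjusted p under 0.05 as the rule.

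**Figure D1:**
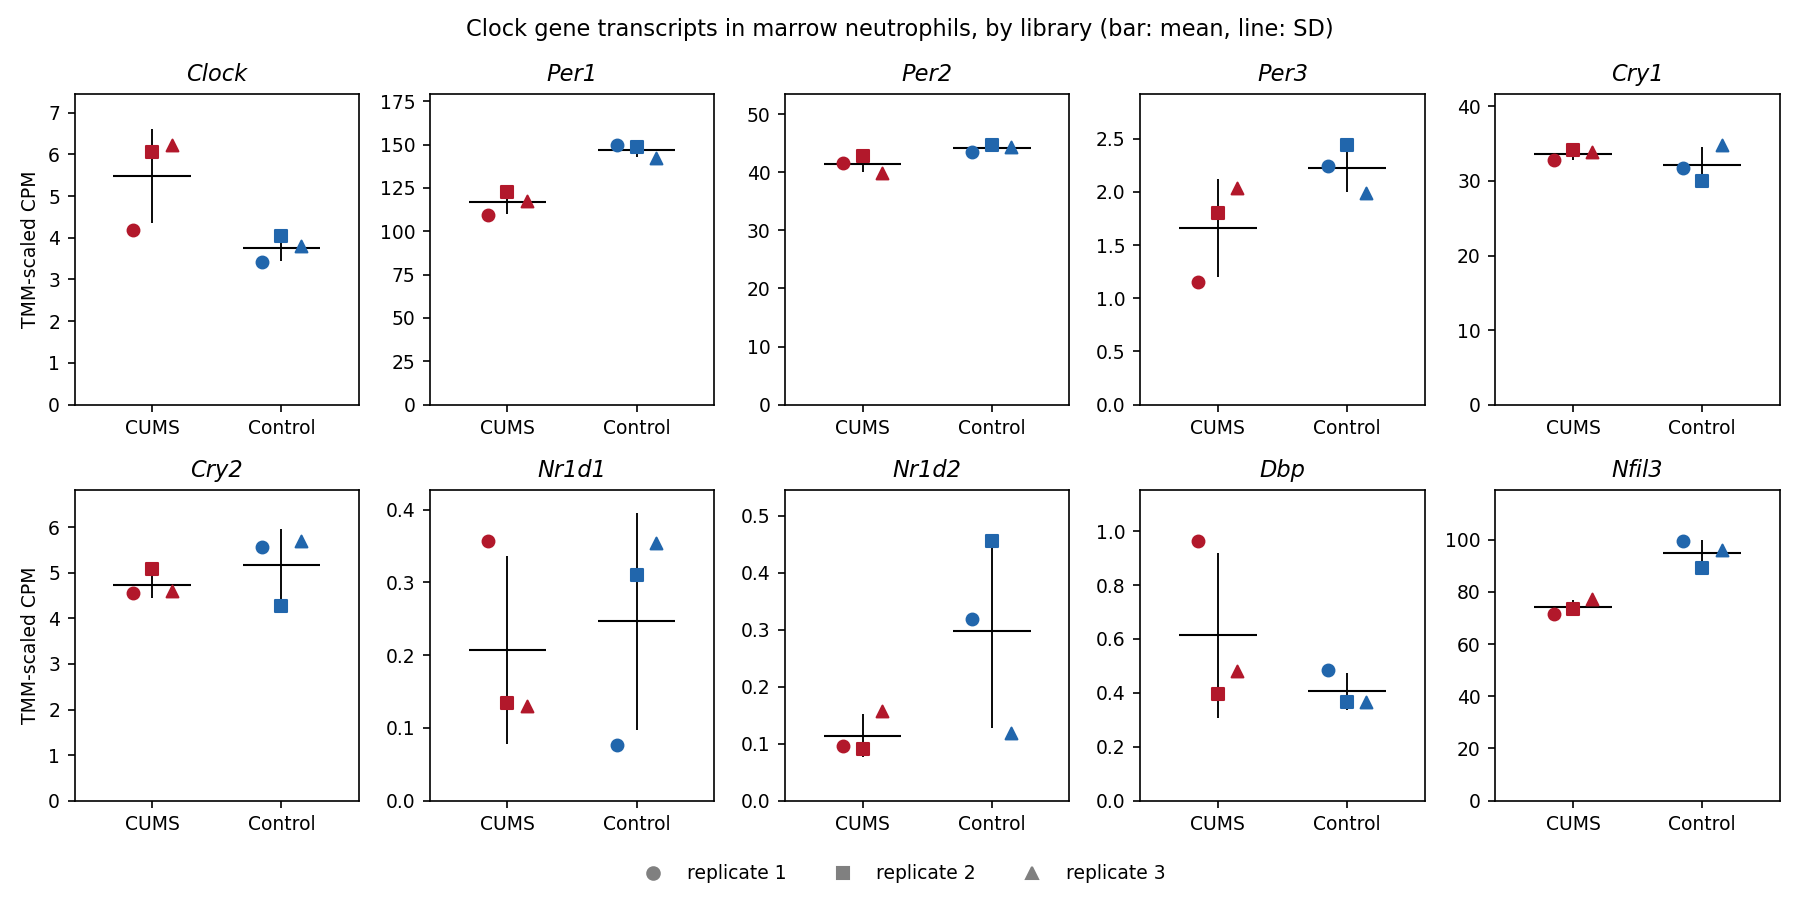
Transcript level of each clock gene in CUMS (red) and Control (blue) libraries, in CPM (counts relative to the library total) after TMM scaling; each point is 1 library, the bar is the mean and the line is the SD. Per1 shows separate groups, at 109 to 123 CPM in CUMS against 142 to 149.5 CPM in Control. Nfil3 does too, at 71.5 to 77.3 CPM in CUMS against 89.3 to 99.3 CPM in Control. The groups of Clock and Per2 do not overlap either, and over all genes tested this holds for 22.9%.

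The deposited values were taken as estimated counts in which a read pair is worth about 4. This factor was inferred from an excess of multiples of 4. The values sum to 85799370 to 109757558 per CUMS library and 78845457 to 103483602 per Control library, or about 19711364 to 27439390 read pairs over all 6. All 14 defining neutrophil markers were detected, with summed levels of 115739 to 142597 CPM in CUMS and 134894 to 146814 CPM in Control. With edgeR 1 of the 14 was higher in CUMS and 2 were lower, against 2.36% and 2.14% of all genes tested. Among the 14 markers 7 had an unadjusted p under 0.05, and 3 were called with DESeq2 and 5 with limma-voom. Of 15 erythroid markers 8 were higher in CUMS (summed 2538 to 3025 CPM, against 1317 to 1889 CPM in Control), and of 20 cell division genes 17 were lower (468 to 489 CPM in CUMS, against 645 to 689 CPM in Control). B cell markers summed to 36.5 to 42.1 CPM in CUMS and 25.1 to 33.0 CPM in Control (0 of 11 called with edgeR, 1 at an unadjusted p under 0.05, 1 with DESeq2 and 0 with limma-voom), and monocyte markers to 691 to 780 CPM in CUMS and 719 to 763 CPM in Control (3 of 12 higher). Of 10 T and NK cell markers 5 could be tested, 0 of them called with edgeR, DESeq2 or limma-voom and 0 at an unadjusted p under 0.05, and Cd3e, Trac, Klrb1c and Ncr1 were at or under 3 read pairs in every library. Plasma cell markers summed to 203 to 206 CPM in CUMS and 159 to 167 CPM in Control (2 of 7 tested higher), eosinophil markers to 51.6 to 60.3 CPM in CUMS and 44.9 to 51.9 CPM in Control (2 of 9 higher), and progenitor markers to 76.7 to 86.6 CPM in CUMS and 76.5 to 78.7 CPM in Control (2 of 12 higher). Basophil and mast cell markers summed to 2.70 to 3.33 CPM in CUMS and 4.64 to 6.33 CPM in Control, and of 5 tested 0 were called with edgeR (2 at an unadjusted p under 0.05, 2 with DESeq2 and 1 with limma-voom). The erythroid, B cell, plasma cell, basophil and mast cell, and cell division sums did not overlap between the groups, and the other sums did. Their part in the differences of Per1 and Nfil3 was not tested. In bulk RNA, fewer cells of a type and less RNA per cell cannot be told apart.

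The clock genes differed widely in level. Per kilobase of merged exons, Nfil3 was first at 36.5 CPM in CUMS and 46.8 CPM in Control, followed by Per1 at 20.7 CPM per kb in CUMS and 26.1 CPM per kb in Control. Cry1 (10.1 and 9.62 CPM per kb in CUMS and Control) and Per2 (7.08 and 7.54 CPM per kb) came next. The remaining 6 genes averaged under 1 CPM per kb. Among them Cry2 had 0.785, Clock 0.336, Per3 0.202 and Dbp 0.170 CPM per kb over the 6 libraries. The REV-ERB genes were last, with 0.0737 CPM per kb for Nr1d1 and 0.0380 CPM per kb for Nr1d2. In this order, the library values of Clock and Per3 overlapped, as did those of Per3 and Dbp and of Nr1d1 and Nr1d2, while those of the other neighbours did not. Merged exons include every annotated isoform, so a gene with long alternative ends has a lower value per kb.

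**Figure D2:**
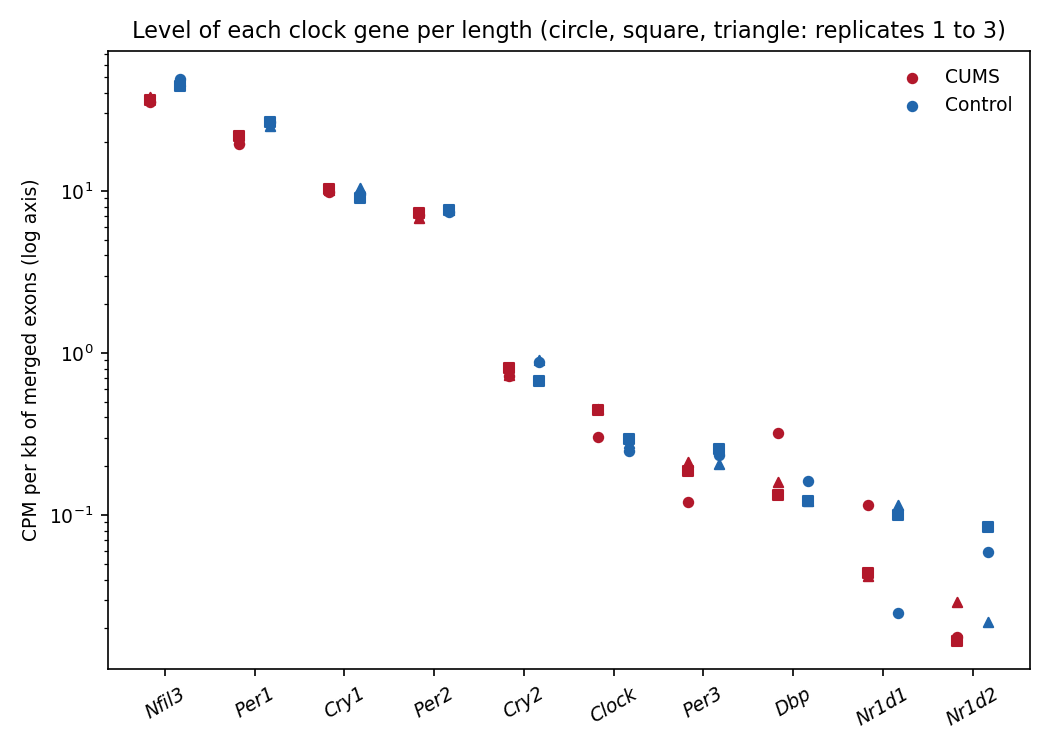
Level of each clock gene per kilobase of merged exons in every library, on a log axis, with CUMS (red) left of Control (blue) and genes ordered by their mean over 6 libraries. Nfil3, Per1, Cry1 and Per2 lie well above the other 6 genes, and Nr1d1 and Nr1d2 are the lowest.

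Per1 encodes a PERIOD protein, the repressor partner of the cryptochromes, and in many cells it is also induced within minutes by cAMP and by glucocorticoids. Its gene spans 69095217 to 69109960 of chromosome 11 (GRCm38, plus strand) and has 5 annotated protein-coding transcripts; the values cover the whole gene. CUMS replicates 1 to 3 held 109, 123 and 117 CPM, and Control replicates 1 to 3 held 149.5, 149 and 142 CPM. The highest CUMS library was therefore below the lowest Control library. The means were 117 ± 6.77 CPM in CUMS and 147 ± 3.95 CPM in Control (SD, n = 3 each). On the log2 scale the fitted change was -0.33 ± 0.051 (SE; edgeR adjusted p = 0.0035). Between 2304 and 3844 read pairs per library stood behind these values. An exact two-sided permutation test gave p = 0.1, the smallest that 3 against 3 libraries allow.

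Nfil3 encodes a basic leucine zipper repressor of D-box genes that is also known as a factor of natural killer cell and other immune cell development. The gene spans 52967209 to 52981073 of chromosome 13 (GRCm38, minus strand). It measured 71.5, 73.3 and 77.3 CPM in CUMS replicates 1 to 3, against 99.3, 89.3 and 95.9 CPM in Control replicates 1 to 3. The groups were again apart, with all CUMS libraries on the low side. On average Nfil3 had 74.0 ± 2.96 CPM in CUMS and 94.9 ± 5.10 CPM in Control (SD, n = 3 each), and the log2 fold change was -0.36 ± 0.055 (SE; edgeR adjusted p = 0.0036). Per1 and Nfil3 passed the threshold in all 15 alternative analyses, with log2 fold changes of -0.37 to -0.29 for Per1 and -0.40 to -0.32 for Nfil3.

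Windows of 300 bases around the annotated starts (250 before, 50 after) were read from RefSeq on GRCm38.p6 for 9 of the 10 genes, all but Per2, in 12 windows. They are shown for Per1 and Nfil3, the genes that fell, and for Cry1, which has both kinds of E-box and did not pass the test. Capitals mark matches on either strand to CACGTG (E-box), CACGTT (E-prime box), TTANNTAA (D-box), AGGTCA (core of the REV-ERB and ROR element), TGACGTCA (cAMP response element) or its short form TGACG.
Per1 first start, chr11:69098699-69098998, plus strand: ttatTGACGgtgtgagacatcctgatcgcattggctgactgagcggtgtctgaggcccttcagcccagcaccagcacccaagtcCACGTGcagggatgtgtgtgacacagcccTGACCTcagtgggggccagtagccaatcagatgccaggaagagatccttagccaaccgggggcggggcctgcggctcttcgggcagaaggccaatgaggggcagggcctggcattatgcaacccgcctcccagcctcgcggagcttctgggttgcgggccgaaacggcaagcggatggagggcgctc
Per1 second start, chr11:69099902-69100201, plus strand: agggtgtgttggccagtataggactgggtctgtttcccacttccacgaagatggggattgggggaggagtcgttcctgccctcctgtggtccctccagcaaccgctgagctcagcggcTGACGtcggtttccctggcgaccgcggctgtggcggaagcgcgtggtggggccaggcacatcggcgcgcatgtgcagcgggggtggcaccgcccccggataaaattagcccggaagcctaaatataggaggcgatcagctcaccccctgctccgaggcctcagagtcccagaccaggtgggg
Nfil3, chr13:52980990-52981289, minus strand: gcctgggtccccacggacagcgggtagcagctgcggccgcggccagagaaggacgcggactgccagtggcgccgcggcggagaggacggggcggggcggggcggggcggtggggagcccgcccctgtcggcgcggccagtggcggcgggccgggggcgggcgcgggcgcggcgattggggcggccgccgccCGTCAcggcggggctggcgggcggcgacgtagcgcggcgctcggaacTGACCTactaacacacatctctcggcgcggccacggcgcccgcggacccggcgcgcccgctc
Cry1, chr10:85185005-85185304, minus strand: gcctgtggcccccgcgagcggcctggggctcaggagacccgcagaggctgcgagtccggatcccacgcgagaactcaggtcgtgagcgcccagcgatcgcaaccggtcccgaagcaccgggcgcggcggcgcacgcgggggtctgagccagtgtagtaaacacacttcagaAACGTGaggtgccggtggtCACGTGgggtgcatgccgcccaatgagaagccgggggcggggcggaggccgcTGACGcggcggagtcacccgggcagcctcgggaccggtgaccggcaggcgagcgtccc

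The first Per1 window held 1 E-box (CACGTG), 1 REV-ERB and ROR core (read as TGACCT) and 1 short cAMP element (TGACG), and the second held 1 short cAMP element. The Nfil3 window held 1 REV-ERB and ROR core and 1 short cAMP element, and no E-box of either kind. Both of these also occurred in clock genes that did not pass: AGGTCA was in 4 of the 12 clock windows (Per1, Nfil3, Clock and Nr1d2), against 16.3% of all 32851 promoter windows, and TGACG in 5 (both of Per1 and those of Nfil3, Cry1 and Cry2), against 20.8%. In the 12 clock windows CACGTG was found in 2 (Per1 and Cry1), against 7.15% of all windows, and CACGTT in 3 (Cry1, Cry2 and Nr1d1), against 4.68%. The D-box letters were found in 1 window, that of Per3, against 6.00% of all windows, and TGACGTCA in 0, against 1.79%. These are matches of letters in short windows and do not show binding.

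The other PERIOD genes had smaller or less certain differences. Per2, a core repressor like Per1, measured 41.7, 42.8 and 39.9 CPM in CUMS replicates 1 to 3 and 43.5, 44.6 and 44.3 CPM in Control replicates 1 to 3. These groups did not overlap after TMM scaling but did overlap in CPM without it, and the log2 fold change was -0.09 (95% interval -0.21 to 0.03, edgeR adjusted p = 0.46). The interval leaves room for a fall, but one smaller than the fitted change of Per1. The ratio of Per1 to Per2 within a library, which needs no scaling between libraries, was 2.63, 2.87 and 2.94 in CUMS replicates 1 to 3 and 3.44, 3.33 and 3.21 in Control replicates 1 to 3, with no overlap; this ratio was chosen after the values were seen and has no test. Per3, the PERIOD gene with the weakest role in the core loop, stood at 1.15, 1.80 and 2.03 CPM in CUMS replicates 1 to 3 and 2.24, 2.44 and 1.99 CPM in Control replicates 1 to 3. CUMS replicate 3 lay within the Control range, and the log2 fold change was -0.42 with a 95% interval of -0.96 to 0.13 (edgeR adjusted p = 0.45). CUMS replicate 1 was the lowest library for Per3, and without it the log2 fold change was -0.21.

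The cryptochrome genes, which encode the strongest repressors of CLOCK and BMAL1, showed no difference beyond the spread of the libraries. Cry1 measured 32.8, 34.2 and 33.8 CPM in CUMS replicates 1 to 3 and 31.7, 29.9 and 34.8 CPM in Control replicates 1 to 3. All CUMS values fell inside the Control range, and the 95% interval of the log2 fold change was -0.09 to 0.22 (estimate 0.06, edgeR adjusted p = 0.74). Cry2 was at 4.55, 5.08 and 4.60 CPM in CUMS replicates 1 to 3 and at 5.57, 4.27 and 5.69 CPM in Control replicates 1 to 3. Its groups overlapped too, with a log2 fold change of -0.12 (95% interval -0.46 to 0.21, edgeR adjusted p = 0.77). Exons of Cry2 share 295 bases with a gene on the other strand, D930015M05Rik, and without strand those reads cannot be told apart.

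Clock, which encodes the DNA-binding partner of BMAL1, was at 4.18, 6.06 and 6.22 CPM in CUMS replicates 1 to 3 and at 3.42, 4.04 and 3.79 CPM in Control replicates 1 to 3. The groups did not overlap, although CUMS replicate 1 was much closer to the Control libraries than to the other CUMS libraries. Its means were 5.48 ± 1.13 CPM in CUMS and 3.75 ± 0.316 CPM in Control (SD, n = 3 each). The log2 fold change was 0.55 ± 0.18 (SE), with an unadjusted p of 0.0094 and an edgeR adjusted p of 0.12. Without CUMS replicate 1 it was 0.71 and passed the threshold (adjusted p = 0.038), and without any other single library the adjusted p was 0.19 to 0.37. Between 67.0 and 168.5 read pairs per library stood behind Clock.

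The REV-ERB genes and Dbp were scarce, and no direction could be read for them at this depth. Nr1d1 had 7.5, 3.75 and 3.5 read pairs in CUMS replicates 1 to 3 and 1.5, 8 and 7.5 in Control replicates 1 to 3. The groups overlapped over nearly their whole range, and the 95% interval of its log2 fold change ran from -2.00 to 1.46 (edgeR adjusted p = 0.92). Nr1d2 had 2, 2.5 and 4.25 read pairs in CUMS replicates 1 to 3 and 6.25, 11.8 and 2.5 in Control replicates 1 to 3. Of its 6 libraries 3, namely CUMS replicates 1 and 2 and Control replicate 3, were at or under the floor of 3 read pairs, and its log2 fold change of -1.37 had an interval of -3.06 to 0.32 (edgeR adjusted p = 0.41). Dbp, the D-box activator and a strongly cycling clock output in many mouse tissues, had 20.3, 11 and 13 read pairs in CUMS replicates 1 to 3 and 9.5, 9.5 and 7.75 in Control replicates 1 to 3. In read pairs its CUMS libraries were all above its Control libraries, but in TMM-scaled CPM the groups overlapped (0.962, 0.396 and 0.481 CPM in CUMS replicates 1 to 3, and 0.484, 0.368 and 0.365 CPM in Control replicates 1 to 3). The log2 fold change was 0.59 with a 95% interval of -0.48 to 1.66 (edgeR adjusted p = 0.63), and without CUMS replicate 1, the highest library, it was 0.11. Exons of Nr1d1 share 263 bases with Thra and those of Dbp share 539 bases with Sphk2, each on the other strand, so part of these few reads may belong to the neighbour.

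**Figure D3:**
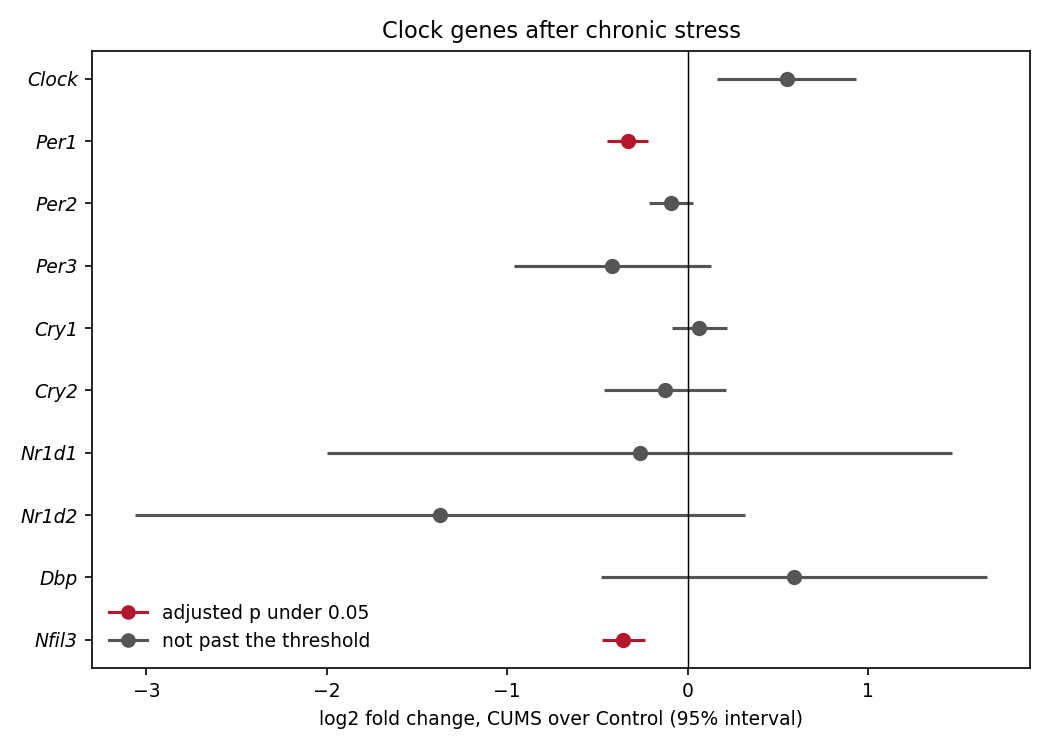
Log2 fold change of each clock gene, CUMS over Control, with its 95% interval from the edgeR fit; red marks an adjusted p under 0.05. Per1 (-0.33) and Nfil3 (-0.36) have narrow intervals below 0, the interval of Clock lies above 0 before adjustment, and those of Nr1d1, Nr1d2 and Dbp are the widest.

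Arranged by arm of the clock, 1 gene passed the threshold in each arm, and both were lower in CUMS. In the E-box arm (Per1, Per2, Per3, Cry2, Nr1d1, Nr1d2 and Dbp) that was Per1. The estimates of Per2, Per3 and Cry2 were below 0 with 95% intervals that include 0, and those of Nr1d1, Nr1d2 and Dbp gave no direction. In the ROR element arm (Clock, Cry1 and Nfil3) Nfil3 passed, and the estimates of Clock and Cry1 were above 0 and did not pass. Cry1 is driven through E-boxes as well and was counted only in this arm. A difference between the arms was not tested. Per1 and Nfil3 belong to different arms and were lower together: the ratio of Per1 to Nfil3 within a library was 1.53, 1.68 and 1.52 in CUMS replicates 1 to 3 and 1.51, 1.67 and 1.48 in Control replicates 1 to 3, so that the groups overlapped. Within the ROR element arm, the ratio of Nfil3 to Cry1 was 2.18, 2.15 and 2.29 in CUMS replicates 1 to 3 and 3.13, 2.98 and 2.76 in Control replicates 1 to 3, without overlap. The ratio of Clock to Cry1 was 0.128, 0.177 and 0.184 in CUMS replicates 1 to 3 and 0.108, 0.135 and 0.109 in Control replicates 1 to 3, and the groups overlapped. These 3 ratios were chosen after the values were seen. Each group was sampled with no hour given, so a difference in phase, in amplitude and in the hour of collection cannot be told apart here. Groups that did not overlap were found for 4 of the 10 genes (Clock, Per1, Per2 and Nfil3), against 22.9% of all genes tested.

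**Figure D4:**
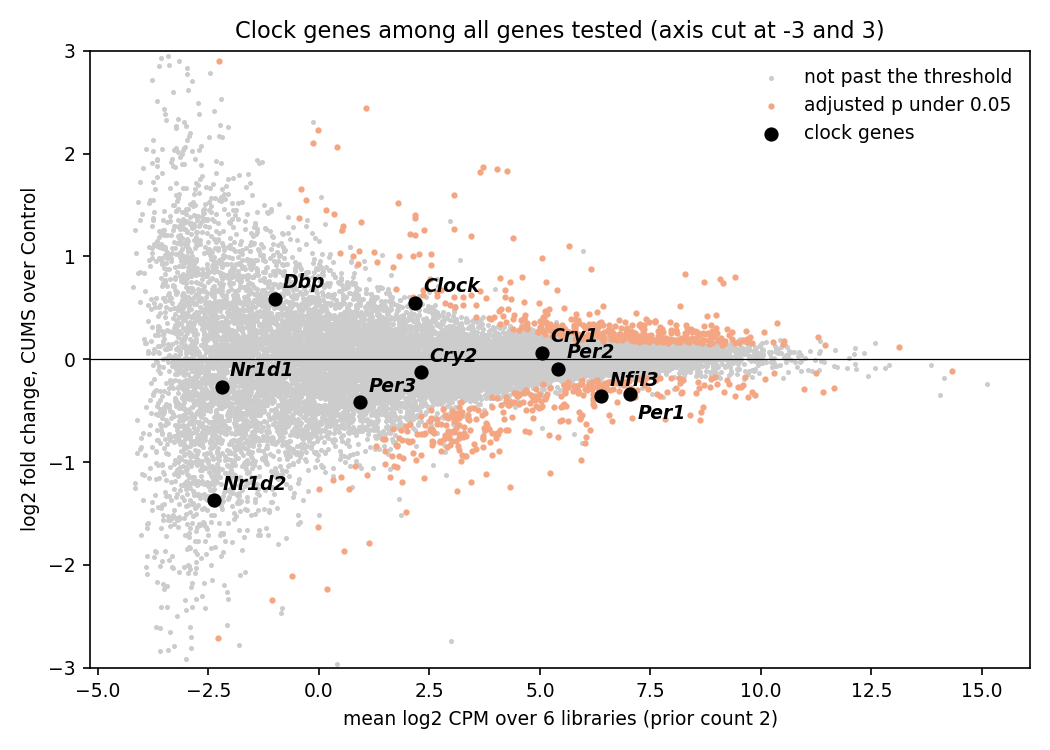
Log2 fold change (CUMS over Control) against mean log2 CPM for 15778 genes, with the 10 clock genes in black and genes past the threshold in orange; values beyond -3 and 3 are not drawn. Per1 and Nfil3 lie among the called genes on the lower side, and Nr1d1, Nr1d2 and Dbp lie at the low-count end where the spread is widest.

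Other genes of the clock pathway were described by lists. Of 14 names of other clock transcription factors 12 were in the tables, 7 had enough counts to be tested and 0 passed with edgeR, DESeq2 or limma-voom, nor at an unadjusted p under 0.05 (median log2 fold change 0.08, against -0.01 over all genes). Arntl, the gene of BMAL1, named here for its role, measured 0.606 ± 0.275 CPM in CUMS and 0.946 ± 0.266 CPM in Control (SD, n = 3 each; 95% interval of the log2 fold change -1.56 to 0.29, edgeR adjusted p = 0.51). Bhlhe40, the most abundant member of that list and a repressor that competes at E-boxes, had 30.1 ± 1.69 CPM in CUMS and 28.4 ± 1.42 CPM in Control (edgeR adjusted p = 0.63). Npas2, which encodes a CLOCK relative, and the ROR gene Rorb were at or under 3 read pairs in every library.

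Genes that govern clock proteins after translation or act as their cofactors were not called with edgeR. Of 20 tested genes for the kinases, phosphatases, ligases and other enzymes that set the life of PER, CRY, REV-ERB and BMAL1, 0 passed with edgeR (4 at an unadjusted p under 0.05, against 16.9% of all genes, 1 with DESeq2 and 0 with limma-voom; median 0.01). The most abundant, the phosphatase gene Ppp1cb, had 412 ± 10.2 CPM in CUMS and 414 ± 16.6 CPM in Control (SD, n = 3 each; edgeR adjusted p = 0.97), and the sign of its difference near 0 changed with the scaling. Of 15 tested corepressors and coactivators 0 passed with edgeR (6 at an unadjusted p under 0.05, 4 with DESeq2 and 1 with limma-voom; median 0.07). Over all genes these shares were 16.9% at an unadjusted p under 0.05, 9.81% with DESeq2 and 6.05% with limma-voom. Ncor1, the most abundant and the corepressor that REV-ERB proteins recruit, had 759.9 ± 19.4 CPM in CUMS and 672 ± 50.5 CPM in Control, and the log2 fold change was 0.18 ± 0.052 (SE; edgeR adjusted p = 0.086); DESeq2 called it (adjusted p = 0.0072).

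Clock outputs and genes of neutrophil ageing moved in both directions. Of 15 tested clock outputs 2 rose and 1 fell (median 0.05), against 2.36% higher and 2.14% lower in CUMS over all genes tested. Among the 15 outputs 7 had an unadjusted p under 0.05, and 4 were called with DESeq2 and 4 with limma-voom. Over all genes these shares were 16.9% at an unadjusted p under 0.05, 9.81% with DESeq2 and 6.05% with limma-voom. Klf10, a Krüppel-like repressor, had 32.7 ± 1.11 CPM in CUMS and 25.6 ± 0.211 CPM in Control (SD, n = 3 each; log2 fold change 0.35, edgeR adjusted p = 0.0086). Cirbp, the gene of a cold-inducible RNA-binding protein, had 28.4 ± 1.27 CPM in CUMS and 21.7 ± 1.98 CPM in Control (log2 fold change 0.39, edgeR adjusted p = 0.019). Klf10 lost its call without CUMS replicate 3 (adjusted p = 0.059), and Cirbp without CUMS replicate 2 or 3 or Control replicate 1 or 2 (0.068 to 0.096). Pfkfb3, whose product raises the activator of glycolysis, fell by 0.29 on the log2 scale (edgeR adjusted p = 0.0035). Of 7 ageing genes, the chemokine gene Cxcl2 fell by 0.51 (edgeR adjusted p = 3.2e-04). The marrow retention receptor gene Cxcr4 rose by 0.25 (edgeR adjusted p = 0.0084). Cxcr2 had a log2 fold change of -0.03 and did not pass the threshold (edgeR adjusted p = 0.81). At an unadjusted p under 0.05 there were 3 of the 7 ageing genes, and DESeq2 and limma-voom each called 3.

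Per1 also belongs to classes of genes that respond to acute signals. Of 26 immediate early genes 12 fell and 1 rose in CUMS (median -0.16), with 10 falls under RLE scaling. Over all genes tested 2.14% fell and 2.36% rose with edgeR. Among the 26 genes 18 had an unadjusted p under 0.05, and 16 were called with DESeq2 and 15 with limma-voom. Of 17 tested genes induced by glucocorticoids, a list that Per1 would also fit, 3 rose (Fkbp5, Zbtb16 and Sgk1) and 0 fell (median -0.03). Among these 17 genes 6 had an unadjusted p under 0.05, and 4 were called with DESeq2 and 4 with limma-voom. Over all genes these shares were 16.9% at an unadjusted p under 0.05, 9.81% with DESeq2 and 6.05% with limma-voom. Whether the fall of Per1 went with either class was not tested.

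**Figure D5:**
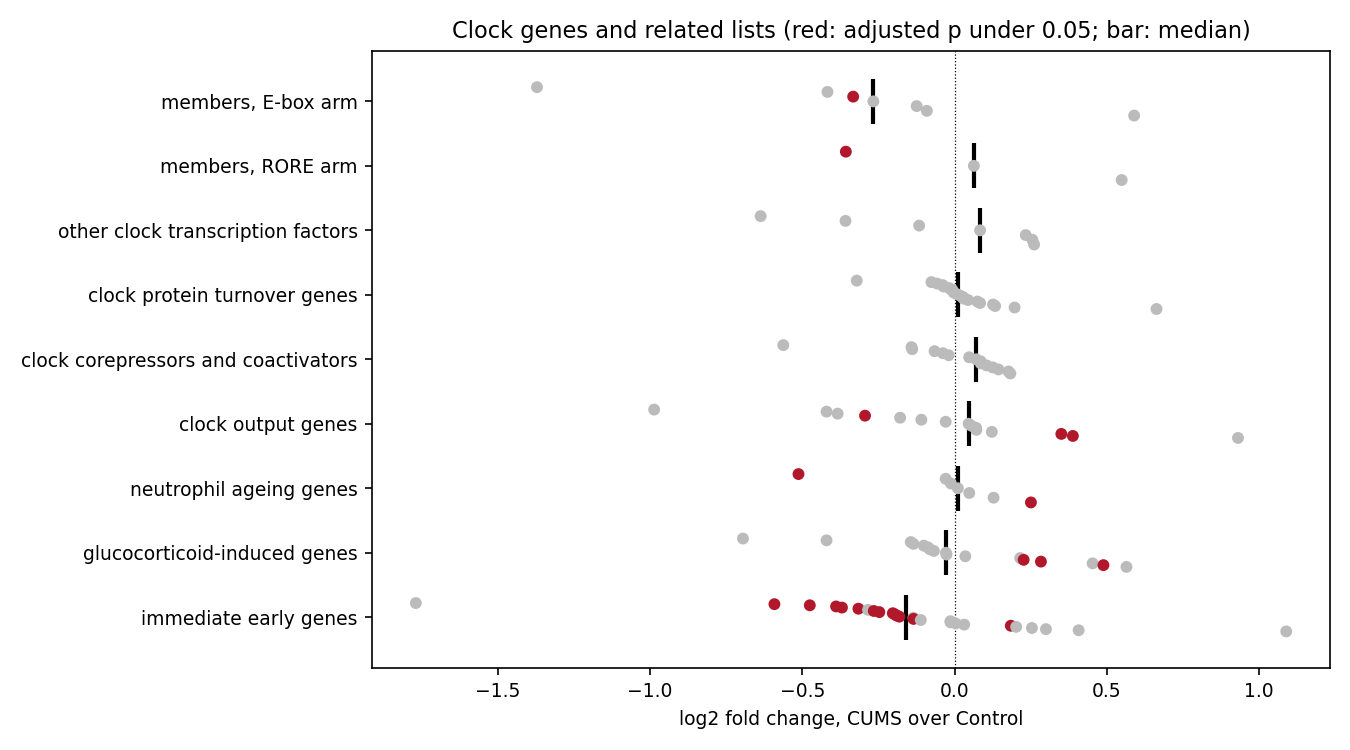
Log2 fold change (CUMS over Control) of each tested gene in the clock gene arms and in related lists; each point is 1 gene, red marks an adjusted p under 0.05 and the bar is the list's median. Calls in both directions appear among clock outputs and ageing genes. Calls below 0 prevail among immediate early genes (12 of 26, against 2.14% of all genes tested). The other transcription factors, turnover genes and cofactors hold 0 calls.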

How the data were processed

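RNA was measured in 6 libraries, 3 CUMS and 3 Control, prepared with a TruSeq RNA kit from total RNA and read in pairs, per the labels' protocols. Per the submitters' processing notes, the mm10 build, the aligner HISAT2 2.1, the read counter featureCounts 1.6.4, the trimmer cutadapt 1.16.5 and bcl2fastq 2.19 were used. The deposited values are whole numbers and were taken as estimated counts per gene: multiples of 4 were in excess (a value of 4 was 1.89 times as frequent as the mean of 3 and 5), and 1588 rows have assembled (STRG) identifiers whose tool is not given in the sources used here. Whether the kit kept strand is not given either. The factor of about 4 per read pair was inferred from the excess of multiples of 4. All read pair numbers and the floor in read pairs rest on it.

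Of rows with the same symbol, the most abundant was used under that name. The counts entered edgeR 4.0.16 (R 4.3.3) with filterByExpr at its defaults, TMM scaling and the quasi-likelihood F test of CUMS against Control, adjusted over 15778 genes by Benjamini-Hochberg at 0.05. The SE and 95% interval of a log2 fold change come from its F statistic; the interval is not adjusted. A floor of 3 read pairs (12 estimated counts) was applied to each library and covers counting error only. Positions, lengths and overlaps are from GENCODE M21. Alternatives used RLE and upper-quartile scaling, DESeq2 1.42.0, limma 3.58.1 (voom), other filters, a replicate block, division by 4, summed rows and each library left out. The clock genes and lists were chosen with earlier results of these data known, and genes outside the 10 are named where called or, in a list with no call, most abundant; Arntl, Cxcr2, Fkbp5, Zbtb16 and Sgk1 were added after their values were seen.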

Additional observations from a re-analysis of the deposited data

How the results depend on the processing

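The number of clock genes called was 2 under every alternative other than leaving out CUMS replicate 1, where Clock made it 3; over the libraries left out it ran from 2 to 3. Groups without overlap were found for 4 clock genes, and for 3 in CPM without TMM. The count over all genes, 710, became 1150 with DESeq2 and 462 with no filter on low counts, and 305 to 697 with a library left out; the cause was not tested. DESeq2 gave no adjusted p for Nr1d1, Nr1d2 and Dbp, the filter at a mean of 1 CPM removed all 3, and division by 4 removed Nr1d1 and Nr1d2. The replicate numbers did not pair the libraries (correlations of same-numbered deviations -0.026 to 0.0081, and 1 of 6 libraries correlated best with its own number). The replicate block called 931 genes and the same 2 clock genes. Without Control replicate 3 the log2 fold change of Nr1d1 was 0.080, and over single libraries left out it ran from -0.90 to 0.080. For Ppp1cb the value near 0 changed sign to 0.00069 with upper-quartile scaling, 0.0018 with DESeq2 and 0.0014 with no filter, and over libraries left out it ran from -0.025 to 0.031. Of the 14 neutrophil markers 3 were called (1 higher and 2 lower in CUMS), and 1 (higher) under RLE scaling. Ncor1 passed under 4 of 15 alternatives (DESeq2, voom, the block and division by 4). Depth limits Nr1d1, Nr1d2 and Dbp, with at most 20.3 read pairs in a library.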
